A study of Mus musculus with 12 samples.

Results

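The transcripts of 9 voltage-gated sodium channel genes were followed in cultured mouse cortical neurons in which topoisomerase 1 (TOP1) was inhibited with topotecan, deleted, or both. The genes were chosen by symbol from the 23893 rows of the deposited count table: the alpha subunit genes Scn1a, Scn2a1, Scn3a and Scn8a, the beta subunit genes Scn2b, Scn3b and Scn4b, and Fgf12 and Fgf14, which encode fibroblast growth factor homologous factors (FHFs). All 9 symbols were present, all averaged at least 1 CPM (counts per 1000000 counts of a library, TMM scaled), and the lowest count of any of them in a library was 12.

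RNA-seq was performed on polyA RNA from 12 cultures of cortical neurons, prepared at embryonic day E13.5 to E15.5 from the mouse strain C57BL6 and, per the study's methods, of the genotype Top1 fl/fl in all 4 groups. The cultures labelled Wild-type, here named WT, received at 3 days in vitro (DIV) a lentivirus that expresses tdTomato, a red fluorescent protein. The Top1cKO cultures (Top1 cKO) received a virus that expresses tdTomato and CRE recombinase, which removes exon 3 of Top1. Both viruses use the CaMKIIα promoter, which is active in neurons, and transduced about 85 to 90% of the cells, so untransduced neurons and non-neuronal cells of the Top1 cKO cultures kept their TOP1. From DIV 15, for 3 days, cells were treated with vehicle (Veh, 0.003% DMSO) or with 300 nM topotecan in the same vehicle (Topot), which gave 3 libraries for each combination: WT-Veh and WT-Topot for WT cells, Top1 cKO-Veh and Top1 cKO-Topot after deletion. The study's methods call the 3 libraries separate cultures, and p-values measure only the spread between these libraries. Topotecan holds TOP1 on the DNA strand that it has cut, whereas the deletion removes the enzyme.

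Voltage-gated sodium channels open when a neuron is depolarized and let in the sodium current that forms the upstroke of the action potential. The alpha subunit forms the pore from linked domains, beta subunits are single-pass membrane proteins that modulate gating and bind other cells, and FHFs bind the intracellular tail of the alpha subunit and set how fast channels inactivate and recover. In the brain, Scn3a is known as the alpha subunit gene of the embryo and Scn8a as one of mature axons. Scn2a1 (also named Scn2a) is prominent in excitatory neurons and Scn1a in inhibitory interneurons.

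The 4 alpha subunit genes are close relatives, which matters for counting short reads. Reads were 50 bases long, and over the whole transcript a run of 50 bases that also occurs in a transcript of another gene made up 5.48% of the positions of Scn1a, 7.93% of those of Scn2a1, 8.53% of those of Scn3a and 0.0551% of those of Scn8a. It made up 0.82% in Scn2b, and no such run was found in Scn3b, Scn4b, Fgf12 or Fgf14. Counts of Scn1a, Scn2a1 and Scn3a can thus be uncertain by reads that fit more than 1 of them.

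In NCBIM37 (mm9) coordinates with the GENCODE vM1 annotation, Scn3a (chr2:65295175-65405684, minus strand, 110.51 kb), Scn2a1 (chr2:65458914-65605504, plus strand, 146.591 kb) and Scn1a (chr2:66108838-66278897, minus strand, 170.06 kb) stand in 1 cluster, with 53.2 kb between Scn3a and Scn2a1. Scn8a (chr15:100763860-100876360, 112.501 kb) stands alone. The beta subunit genes on chromosome 9 are short: Scn3b spans 22.403 kb (chr9:40076801-40099203), Scn2b 12.195 kb (chr9:44925959-44938153) and Scn4b 15.716 kb (chr9:44946520-44962235), and the gap between Scn2b and Scn4b is 8.37 kb. The FHF genes are the longest, with 285.108 kb for Fgf12 (chr16:28160206-28445313, minus strand) and 699.221 kb for Fgf14 (chr14:124377129-125076349, minus strand). RefSeq lists 4 start sites for Fgf12, spread over 307.2 kb of a later assembly, so its full span is longer than the annotation used here, and the count of a gene is the sum over its start sites. No exon of the 9 genes overlapped an exon of another annotated gene.

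The library totals ranged from 1730164 to 4583777 counts. Top1 had 117 to 163 CPM in the 6 WT libraries and 27.1 to 44.0 CPM in the 6 Top1 cKO libraries, so each library fitted its label. Neuronal markers (6 of 6 genes detected) summed to between 3730 and 5244 CPM over the 12 libraries, and microglial and endothelial markers stayed at or below 5.14 CPM in sum. Astrocyte markers (6 of 6 genes detected, none at 0) were present and moved with the drug: their summed level was 888 to 2375 CPM in WT-Veh against 272 to 561 CPM with topotecan, and after deletion 813 to 2658 CPM with vehicle against 271 to 905 CPM with topotecan. Interneuron markers summed to 986 to 2049 CPM in WT-Veh and to 845 to 1260 CPM in WT-Topot, and progenitor markers to 86.4 to 139 and to 162 to 208 CPM. These cell markers move with several results below, and their part in those results was not tested. In bulk RNA, fewer cells of a type and less RNA per cell cannot be told apart.

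In WT-Veh cells, Fgf12 was the most abundant of the 9 transcripts per length, at 141 ± 20.8 CPM per kb of exon (mean ± SD, n = 3 here and below). The beta subunit genes Scn2b (62.2 ± 11.7 CPM per kb) and Scn3b (57 ± 7.59) and the alpha subunit gene Scn2a1 (50.7 ± 1.26) followed, and the gaps between neighbours in this order were smaller than the larger SD. Scn8a (24.0 ± 6.43 CPM per kb), Scn1a (16.4 ± 5.55), Fgf14 (12.4 ± 2.65), Scn3a (5.56 ± 1.57) and Scn4b (2.82 ± 0.837) came next, with Scn1a and Fgf14 closer than the larger SD. Of all alpha subunit transcripts counted per kb, Scn2a1 thus made up 51.4% ± 3.59, Scn8a 24.2% ± 5.86, Scn1a 16.5% ± 5.26 and Scn3a 5.64% ± 1.59. Scn7a, Scn9a and Scn11a had a mean share of at most 1% each, and Scn10a was at 0 in these 3 libraries.

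**Figure D1:**
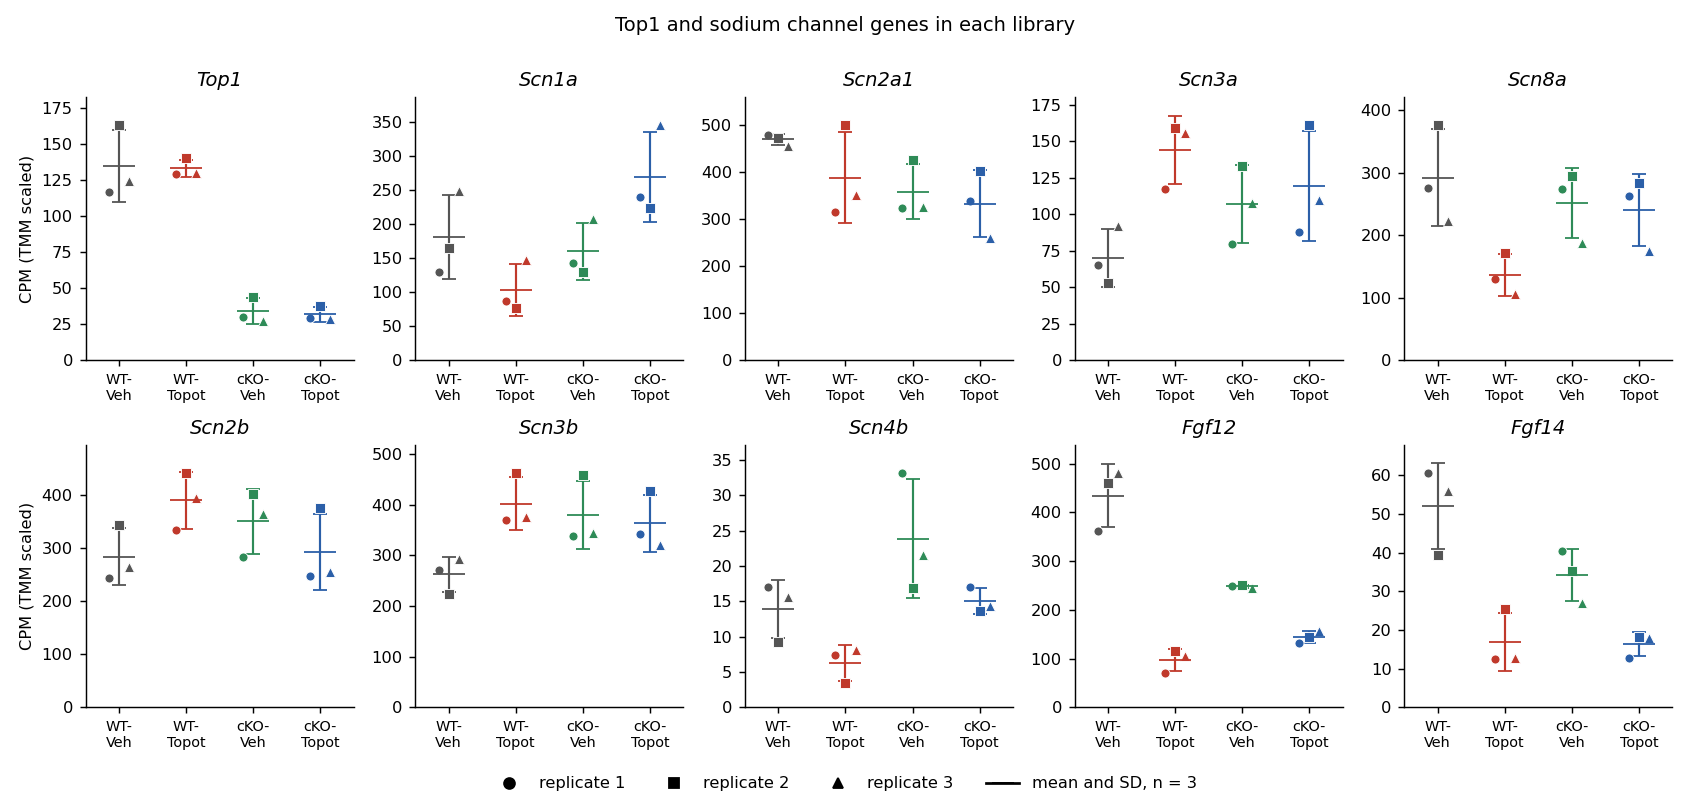
CPM (y axis, TMM scaled, from 0) of Top1 and the 9 sodium channel genes in each of the 12 libraries, by group (x axis; cKO stands for Top1 cKO). Symbols mark replicate numbers, and the bars show the mean and SD of 3 libraries. Fgf12 stood at 361 to 481 CPM in WT-Veh and fell to between 71 and 115 CPM with topotecan, while Scn3a was higher in every WT-Topot library than in any WT-Veh library.

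Topotecan in WT cells changed the sodium channel genes in both directions. Fgf12, Fgf14 and the alpha subunit gene Scn8a fell, and Scn3a rose. With edgeR's quasi-likelihood test at a false discovery rate (FDR) of 0.01, 3 of the 9 genes were lower in WT-Topot than in WT-Veh cells and 1 was higher. Over all genes, 2.04% were called lower and 0.682% higher, and over genes longer than 100 kb 15.1% were called lower and 0.416% higher. Deviations from the group means were shared among libraries of the same number, and with the replicate number as a block 5 of the 9 genes were lower and 3 higher, against 5% and 3.24% of all genes. The groups did not overlap for 6 of the 9 genes, 4 of them lower and 2 higher, where 13.2% and 12.9% of the 13720 genes that averaged 1 CPM or more were apart in these directions. The median log2 fold change was −0.80 over the 9 genes and 0.03 over those 13720 genes.

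Among alpha subunits, Scn8a, which encodes Nav1.6, had 276, 376 and 223 CPM in the WT-Veh libraries 1 to 3 and 130, 172 and 106 CPM in WT-Topot. Every WT-Topot library lay below every WT-Veh library, and the difference within each replicate number was between −1.13 and −1.06 on the log2(CPM + 1) scale. The fitted log2 fold change was −1.09 ± 0.22 (SE; edgeR adjusted p = 0.0035). Scn3a, which encodes Nav1.3, went the other way, from 65.2, 53.0 and 91.6 CPM to 117, 159 and 156 CPM. The groups did not overlap, and the log2 fold change was 1.06 ± 0.22 (SE; edgeR adjusted p = 0.00479). Both calls were lost without WT-Veh replicate 2 (edgeR adjusted p = 0.0236 for Scn3a and 0.0159 for Scn8a) and without WT-Topot replicate 3 (0.0145 and 0.0173). That of Scn3a was also lost without WT-Topot replicate 2 (0.0182) and in 1 fit over all 12 libraries (0.0119), and the direction was kept in each case.

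Scn1a, which encodes Nav1.1, had 130, 164 and 249 CPM in WT-Veh and 86.1, 77 and 147 CPM in WT-Topot. It was lower within each of the 3 replicate numbers, but the groups overlapped, since WT-Topot replicate 3 lay above WT-Veh replicate 1. The log2 fold change was −0.80 ± 0.26 (SE; edgeR adjusted p = 0.0953), and with the replicate block −0.81 ± 0.14 (edgeR adjusted p = 1.14e-06). Without the block it was called lower when WT-Veh replicate 1 (0.00377) or WT-Topot replicate 3 (0.00612) was left out. Scn2a1, which encodes Nav1.2, had 479, 472 and 456 CPM in WT-Veh, the lowest spread relative to the mean among the 9 genes in that group, and 315, 499 and 350 CPM in WT-Topot. Its log2 fold change was −0.27 with a 95% confidence interval of −0.65 to 0.11, and it passed the threshold in neither fit (edgeR adjusted p = 0.677 and, with the block, 0.0756). Scn3a and Scn2a1, the neighbours on chromosome 2, thus differed in their values under the drug, while the difference between the 2 genes was not tested.

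The beta subunit genes had log2 fold changes of both signs. Scn3b had 272, 224 and 292 CPM in WT-Veh and 369, 463 and 375 CPM in WT-Topot, so the groups were apart. Its log2 fold change was 0.62 ± 0.17 (SE; edgeR adjusted p = 0.0465), which passed only with the replicate block (1.67e-05). Scn2b, whose product joins the alpha subunit through a disulfide bond, had 243, 344 and 265 CPM in WT-Veh and 334, 442 and 394 CPM in WT-Topot. Here the groups overlapped, the log2 fold change was 0.46 ± 0.18 (SE; edgeR adjusted p = 0.232), and the block again gave a call (0.00132).

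Scn4b, the source of a peptide that reopens channels during repolarization, was the rarest of the 9 and had 58, 21 and 27 counts in WT-Veh and 22, 12 and 19 counts in WT-Topot. As CPM these were 17.0, 9.20 and 15.6 against 7.37, 3.43 and 8.14, with no overlap. The log2 fold change of −1.16 ± 0.39 (SE) did not pass without the block (edgeR adjusted p = 0.124) and passed with it (0.00363). Scn2b and Scn4b are neighbours on chromosome 9 and had log2 fold changes of opposite sign.

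The FHF genes fell most. Fgf12 had 361, 461 and 481 CPM in WT-Veh and 71, 115 and 106 CPM in WT-Topot, and its log2 fold change was −2.15 ± 0.21 (SE; edgeR adjusted p = 1.53e-06). It ranked 37 of all 23893 genes by p-value. Fgf14, whose loss causes an inherited ataxia, had 60.6, 39.4 and 55.9 CPM in WT-Veh and 12.4, 25.5 and 12.8 CPM in WT-Topot. The highest WT-Topot library, replicate 2, remained below the lowest WT-Veh library, and the log2 fold change was −1.60 ± 0.28 (SE; edgeR adjusted p = 0.00128). Both FHF calls held when any 1 of the 6 libraries was left out.

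Summed by class and per kb of exon, the 2 FHF genes went from 153 ± 19.5 CPM per kb in WT-Veh to 35.6 ± 8.82 in WT-Topot. The 3 beta subunit genes went from 122 ± 5.57 to 174 ± 21.9 CPM per kb, and the 4 alpha subunit genes from 96.6 ± 4.94 to 73.9 ± 12.9. In each class the WT-Topot libraries lay outside the range of the WT-Veh libraries. In the order of levels per kb, Fgf12 went from the first place in WT-Veh to the fourth in WT-Topot, where Scn3b (87.3 ± 11.3 CPM per kb) and Scn2b (85.5 ± 11.9) stood first and differed by less than the larger SD. Scn3a (11.5 ± 1.85), Scn8a (11.2 ± 2.74) and Scn1a (9.33 ± 3.43) could not be ordered in WT-Topot cells by that measure.

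In the same comparison, Rbfox3 (NeuN, a marker of mature neurons) fell by 0.96 on the log2 scale (edgeR adjusted p = 0.00209), and the astrocyte gene Gfap by 2.54 (0.000174). Of 6 neuronal markers, 3 had negative and 3 positive log2 fold changes (median 0.01). Besides Rbfox3 these were Map2 (−0.43) and Snap25 (−0.56), and Tubb3 (0.45), the vesicular glutamate transporter genes Slc17a7 (0.45) and Slc17a6 (1.05). None of these 5 passed without the block, and all did with it. Of the 4 progenitor markers with a mean of at least 1 CPM, 2 had negative values (median −0.07), and Nes was the 1 called higher (1.22; edgeR adjusted p = 0.00167). Of 7 interneuron markers, 5 had negative values (median −0.99) and none passed without the block. With the block, 4 were lower and 1 higher. Among the negative ones, Gad1 and Gad2 had −1.06 and −0.99 (edgeR adjusted p = 0.0405 and 0.0129 without the block). The part of these markers in the fall of Scn8a and the FHF genes and in the rise of Scn3a was not tested.

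**Figure D2:**
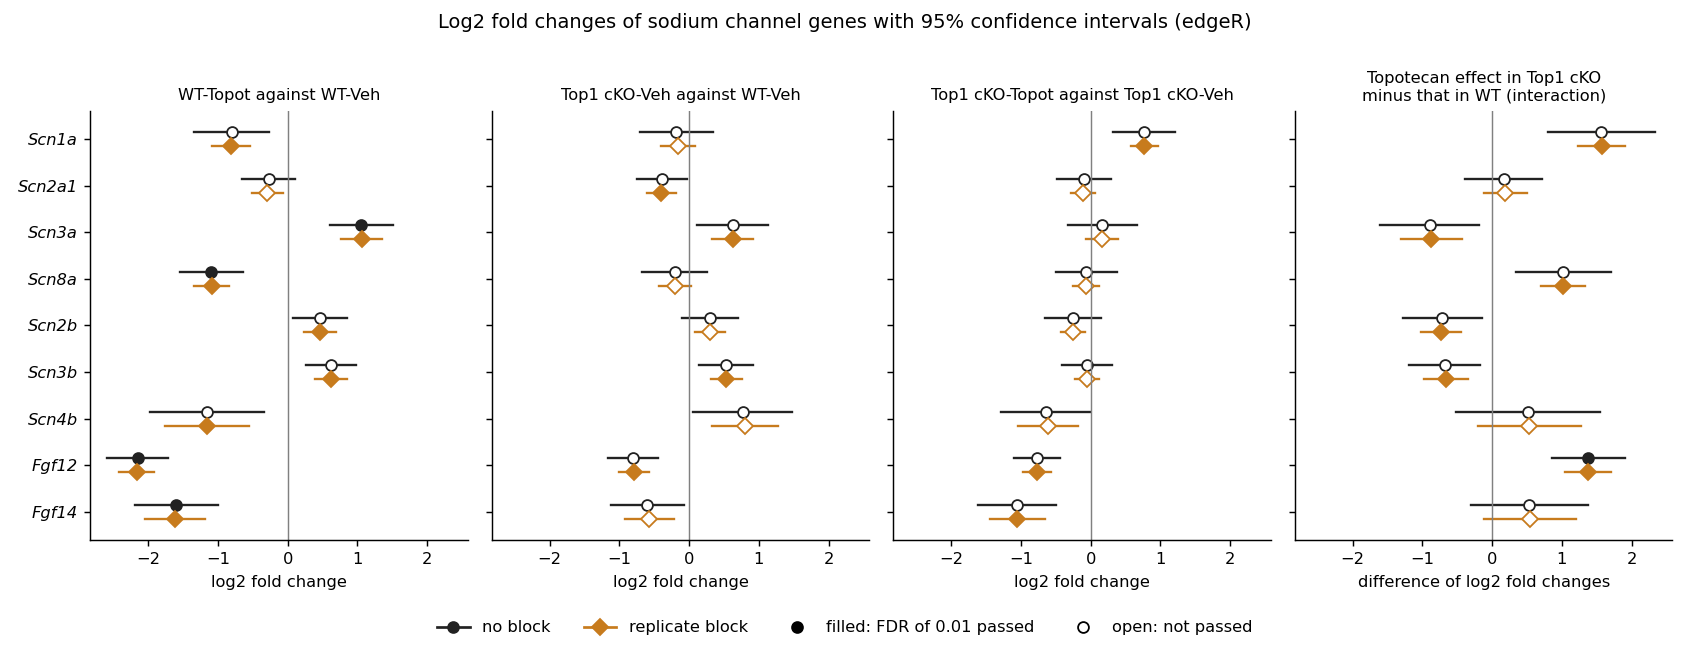
Log2 fold changes (x axis) of the 9 genes in 3 comparisons, and the difference between the topotecan effects in Top1 cKO and WT cells, with 95% confidence intervals from edgeR without (circles) and with the replicate block (diamonds). Filled symbols passed the FDR of 0.01. Without the block, Scn3a, Scn8a, Fgf12 and Fgf14 are filled in WT-Topot against WT-Veh, none is filled after deletion alone or with topotecan after deletion, and Fgf12 alone is filled in the interaction.

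After deletion of Top1 without drug, Fgf12 and Scn2a1 stood lower and Scn3b higher than in any WT-Veh library. Compared with WT-Veh cells, none of the 9 genes passed the FDR of 0.01 in Top1 cKO-Veh cells without the block, where 0.126% of all genes were called lower and 0.046% higher. At an unadjusted p under 0.05, 3 of the 9 were lower (Fgf12, Fgf14, Scn2a1) and 3 higher (Scn3a, Scn3b, Scn4b), against 4.82% and 3.9% of all genes. The DESeq2 Wald test called 1 of the 9, Fgf12 (adjusted p = 0.001), where it called 160 of all genes lower and 63 higher. With the replicate block, Fgf12 and Scn2a1 were lower and Scn3a and Scn3b higher, against 2.95% and 2.6% of all genes. The groups were apart for Fgf12, Scn2a1 and Scn3b alone, where 10.3% of the 13720 genes were apart downward and 9.58% upward. The libraries of WT-Veh serve as controls here and above, so the values of both comparisons are given side by side only.

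Fgf12 had 248, 252 and 244 CPM in Top1 cKO-Veh, all below the lowest WT-Veh library at 361 CPM. The log2 fold change was −0.81 ± 0.17 (SE; edgeR adjusted p = 0.0442, and 1.5e-10 with the block), beside −2.15 for topotecan. Fgf14 had 40.3, 35.3 and 27.1 CPM and overlapped WT-Veh, with −0.60 ± 0.24 (SE; edgeR adjusted p = 0.442, and 0.0242 with the block). Scn2a1 had 323, 425 and 326 CPM, all below WT-Veh. Its log2 fold change of −0.39 ± 0.17 (SE) passed only with the block (edgeR adjusted p = 0.49 without and 0.00414 with it).

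Scn3a had 79.8, 133 and 108 CPM in Top1 cKO-Veh and was higher within each replicate number, by 1.31 in replicate 2 and by 0.24 and 0.29 in the others on the log2(CPM + 1) scale. The fitted log2 fold change was 0.62 ± 0.24 (SE; edgeR adjusted p = 0.388, and 0.00078 with the block). Scn3b was higher in all 3 libraries (339, 458 and 344 CPM) than in any WT-Veh library, with 0.53 ± 0.18 (SE; edgeR adjusted p = 0.275, and 9.67e-05 with the block). Scn4b had 33.2, 16.9 and 21.5 CPM, a log2 fold change of 0.77 ± 0.33 (SE) that passed in neither fit (edgeR adjusted p = 0.498 and 0.0152).

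For Scn1a and Scn8a no difference from WT-Veh was detected after deletion. Scn8a had 274, 294 and 188 CPM in Top1 cKO-Veh, and its log2 fold change was −0.21 with a 95% confidence interval of −0.67 to 0.26. Scn1a had 143, 129 and 207 CPM and a log2 fold change of −0.18 (95% confidence interval −0.70 to 0.34). The interval of Scn8a did not reach the −1.09 that topotecan gave in WT cells. That estimate has an error of its own and rests on the same WT-Veh libraries, so both values are given side by side only.

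The direct comparison of WT-Topot with Top1 cKO-Veh cells uses no WT-Veh library. Here Fgf12 (−1.35 ± 0.19 SE; edgeR adjusted p = 0.000404) and Scn4b (−1.93 ± 0.37 SE; 0.00495) were lower with topotecan than with deletion, and none of the 9 was higher, against 1.23% and 0.293% of all genes. At an unadjusted p under 0.05, 5 were lower and 0 higher, against 6.71% and 5.4% of all genes. Scn8a was called lower by the DESeq2 Wald test (adjusted p = 0.00228). The groups were apart for Scn8a, Scn4b, Fgf12 and Fgf14, all lower, where 12.3% of the 13720 genes were apart downward and 12.1% upward. For Scn4b this set 7.37, 3.43 and 8.14 CPM against 33.2, 16.9 and 21.5 CPM, with no overlap, and the call was lost without WT-Topot replicate 2 (edgeR adjusted p = 0.0135) and with filterByExpr (0.0177). The block added Scn1a, Scn8a (−0.89 in both fits) and Fgf14 as lower and none as higher, against 4.8% and 2.93% of all genes. Without Top1 cKO-Veh replicate 3, 4 of the 9 were called lower, Scn8a among them (edgeR adjusted p = 2.08e-05). That fit called 652 of all genes lower and 219 higher.

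With topotecan after Top1 deletion, both FHF genes had lower values, Scn1a higher ones, and no difference was detected for Scn8a or Scn3a. In Top1 cKO-Topot against Top1 cKO-Veh cells, none of the 9 genes passed the FDR of 0.01 without the block, where 0.00837% of all genes were called lower and 0% higher. At an unadjusted p under 0.05, 3 were lower (Fgf12, Fgf14, Scn4b) and 1 higher (Scn1a), against 2.62% and 1.69% of all genes. The DESeq2 Wald test called Fgf12 (adjusted p = 0.000821), where it called 44 of all genes lower and 9 higher. With the block Fgf12 and Fgf14 were lower and Scn1a higher, against 1.74% and 0.858% of all genes. The groups were apart for the same 3 genes, where 6.56% of the 13720 genes were apart downward and 5.17% upward.

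Fgf12 had 133, 145 and 157 CPM in Top1 cKO-Topot, all below the 244 to 252 CPM of Top1 cKO-Veh, a log2 fold change of −0.76 ± 0.16 (SE; edgeR adjusted p = 0.0897, and 7.06e-11 with the block). Fgf14 had 12.7, 18.3 and 17.9 CPM, also below all Top1 cKO-Veh libraries, and a log2 fold change of −1.06 ± 0.26 (SE; edgeR adjusted p = 0.261, and 3.11e-05 with the block). Summed per kb, the 2 FHF genes stood at 132 to 169 CPM per kb in WT-Veh, 85.7 to 90.3 after deletion, 46.1 to 55.4 after deletion and topotecan, and 26 to 43.3 in WT-Topot, so that no groups overlapped. Fgf12 made up most of this sum (141 CPM per kb in WT-Veh, against 12.4 for Fgf14). Fgf14 alone overlapped between Top1 cKO-Veh and WT-Veh and between Top1 cKO-Topot and WT-Topot.

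Scn1a had its highest mean of the 4 groups in the cells with both deletion and drug. It had 239, 224 and 345 CPM in Top1 cKO-Topot, against 143, 129 and 207 CPM in Top1 cKO-Veh. The difference was 0.74, 0.79 and 0.73 on the log2(CPM + 1) scale within replicate numbers 1 to 3. The fitted log2 fold change was 0.77 ± 0.21 (SE; edgeR adjusted p = 0.371, and 1.93e-11 with the block). Without Top1 cKO-Veh replicate 3, Scn1a was called higher without the block as well (0.00112). Scn8a had 262, 283 and 174 CPM and a log2 fold change of −0.06 (95% confidence interval −0.50 to 0.37). Scn3a had 87.6, 161 and 110 CPM and a log2 fold change of 0.17 (95% confidence interval −0.32 to 0.66). Neither interval held the point estimate of topotecan in WT cells, but those estimates have errors of their own. The test of the difference, the interaction below, passed for Scn3a and Scn8a with the block only. The astrocyte marker Gfap had a log2 fold change of −1.47 here (edgeR adjusted p = 0.495), and its part in these values was not tested.

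Whether topotecan acted differently in Top1 cKO and WT cells was tested as an interaction over all 12 libraries. Fgf12 passed the FDR of 0.01: its fall was smaller in Top1 cKO cells by 1.38 ± 0.25 (SE) on the log2 scale (edgeR adjusted p = 0.00653). It was 1 of 9 genes with a positive interaction and 0 had a negative one at that threshold, against 0.398% and 0.0377% of all genes. At an unadjusted p under 0.05, 3 were positive and 3 negative, against 4.57% and 3.65% of all genes. The DESeq2 Wald test called 2, Fgf12 and Scn1a, both positive, where it called 275 of all genes positive and 82 negative. The call of Fgf12 was lost in 10 of the 12 fits that left out 1 library, with adjusted p-values up to 0.0185. With the block, 3 of the 9 genes had a positive interaction (Scn1a 1.57, Scn8a 1.02, Fgf12 1.38) and 3 a negative one (Scn3a −0.87, Scn2b −0.73, Scn3b −0.66), against 2.44% and 1.53% of all genes. For Fgf14 the interaction was 0.53 (95% confidence interval −0.31 to 1.37) and for Scn2a1 0.16 (−0.39 to 0.72), and neither passed in either fit.

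Top1 cKO-Topot and WT-Topot cells received the same drug and differed in the virus, with or without CRE, and thereby in TOP1. Scn1a was higher in Top1 cKO-Topot, by 1.38 ± 0.22 on the log2 scale (SE; edgeR adjusted p = 3e-04), and no member was lower, against 1.46% and 1.03% of all genes. At an unadjusted p under 0.05, 4 were higher and 1 lower, against 6.9% and 7.28% of all genes. The DESeq2 Wald test called 2 higher and 0 lower, where it called 483 of all genes higher and 279 lower. The call of Scn1a held when any 1 of the 6 libraries was left out, and every Top1 cKO-Topot library (224 CPM or more) lay above every WT-Topot library (147 CPM or less). With the block, Scn8a (0.81), Scn4b (1.31) and Fgf12 (0.59) were also higher and Scn2b (−0.43) lower, against 4.6% and 4.08% of all genes. The groups were apart for Scn1a, Scn8a, Scn4b and Fgf12, all higher, where 13.3% of the 13720 genes were apart upward and 14.1% downward. Scn8a was called by the DESeq2 Wald test (adjusted p = 0.00457). With edgeR and without the block it missed the threshold (edgeR adjusted p = 0.0148), but passed without WT-Topot replicate 2 (0.000494) or without Top1 cKO-Topot replicate 3 (1.54e-05). Of 7 interneuron markers, 1 had a negative log2 fold change in this comparison (median 0.47). Without the block 1 was called higher and with it 3, against 1.46% and 4.6% of all genes. Their sum was 845 to 1260 CPM in WT-Topot and 1220 to 1872 CPM in Top1 cKO-Topot. Of 6 neuronal markers, 2 were called higher and 1 lower without the block, against 1.46% and 1.03%. The part of these markers in the values of Scn1a was not tested.

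Set against WT-Veh cells, Top1 cKO-Topot cells had lower Fgf12 (−1.56 ± 0.18 SE; edgeR adjusted p = 2.04e-05) and Fgf14 (−1.65 ± 0.27 SE; 0.000609), and no member was higher, against 1.21% and 0.473% of all genes. At an unadjusted p under 0.05, 3 were lower and 3 higher, against 7.22% and 6.25% of all genes. The DESeq2 Wald test kept the calls of Fgf12 and Fgf14. The groups were apart for Scn2a1, Fgf12 and Fgf14 (lower) and Scn3b (higher), where 14.4% and 12% of the 13720 genes were apart. Scn8a had a log2 fold change of −0.26 (95% confidence interval −0.71 to 0.19). The block added Scn1a (0.62), Scn3a (0.78) and Scn3b (0.49) as higher and Scn2a1 (−0.49) as lower, against 3.34% and 4.02% of all genes. Without WT-Veh replicate 3, 4 of the 9 genes were called, 2 in each direction, with Scn1a (edgeR adjusted p = 0.00212) and Scn3a (0.000958) higher. That fit called 580 of all genes lower and 321 higher.

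The make-up of the alpha subunit transcripts followed from these levels. Scn3a made up 5.64% ± 1.59 of the alpha subunit counts per kb in WT-Veh and 15% ± 1.3 in WT-Topot. After deletion it was 9.97% ± 1.72 with vehicle and 10.1% ± 2.4 with topotecan. The share was at least 14% in every WT-Topot library and at most 7.26% in WT-Veh. Scn8a made up 24.2% ± 5.86, 14.7% ± 2.74, 24.5% ± 4.76 and 21.0% ± 3.83 of these counts in the 4 groups in that order. Scn1a held its highest share in Top1 cKO-Topot (26.5% ± 8.66, against 12.5% ± 4.95 in WT-Topot), where Scn2a1 held its lowest (38.2% ± 5.01). Scn9a, the neighbour of Scn1a, made up 2.43% ± 0.863 in Top1 cKO-Topot and 1.03% or less on average in the other groups.

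**Figure D3:**
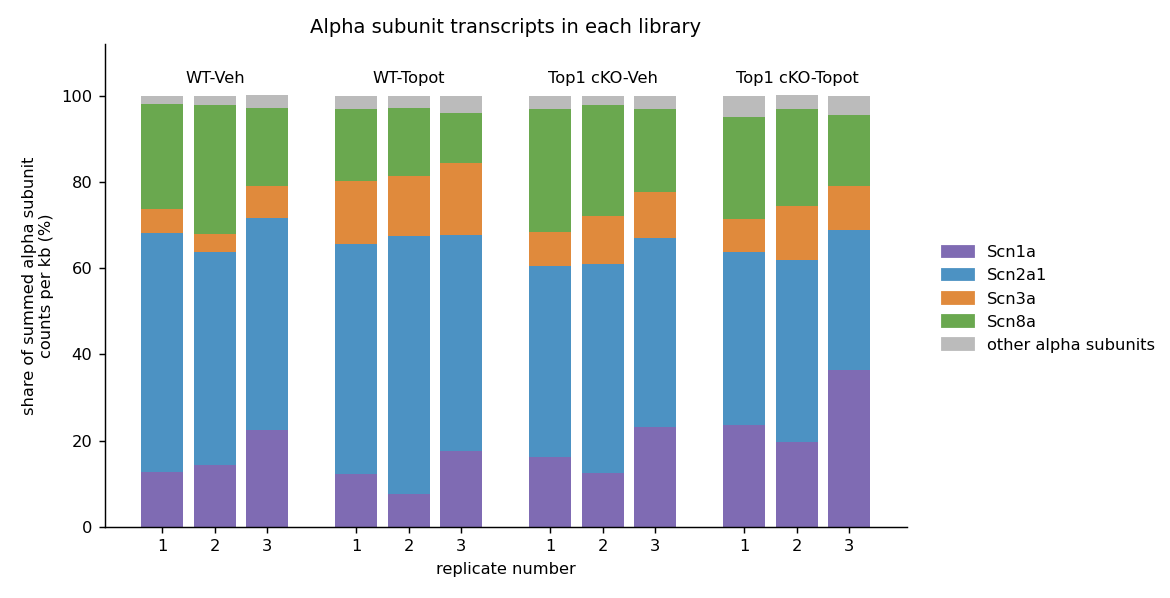
Share of each alpha subunit gene in the summed alpha subunit counts per kb of exon (y axis, percent) in each library (x axis, replicate number, by group). Grey joins the other alpha subunit genes. The Scn3a share was 14.0 to 16.5% in the 3 WT-Topot libraries and 4.08 to 7.26% in WT-Veh, and the Scn1a share was highest in the third Top1 cKO-Topot library, at 36.3%.

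The ratio of Scn3a to Scn8a within a library does not depend on library scaling, apart from a pseudocount of 1 CPM. On the log2 scale it was −2.06, −2.80 and −1.27 in WT-Veh and −0.15, −0.11 and 0.55 in WT-Topot. It was higher within every replicate number, the groups did not overlap, and the means differed by 2.14, beyond the larger SD of 0.77. A two-sided exact permutation test gave p = 0.1, the lowest value that 3 libraries against 3 can reach, and 0.3 after adjustment over 3 comparisons. In Top1 cKO-Veh the ratio was −1.77, −1.14 and −0.79, which gave a difference of 0.81 from WT-Veh (two-sided exact p = 0.2, adjusted 0.3). In Top1 cKO-Topot it was −1.57, −0.81 and −0.66, a difference of 0.22 from Top1 cKO-Veh (two-sided exact p = 0.6, adjusted 0.6) that was smaller than the SD of either group.

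**Figure D4:**
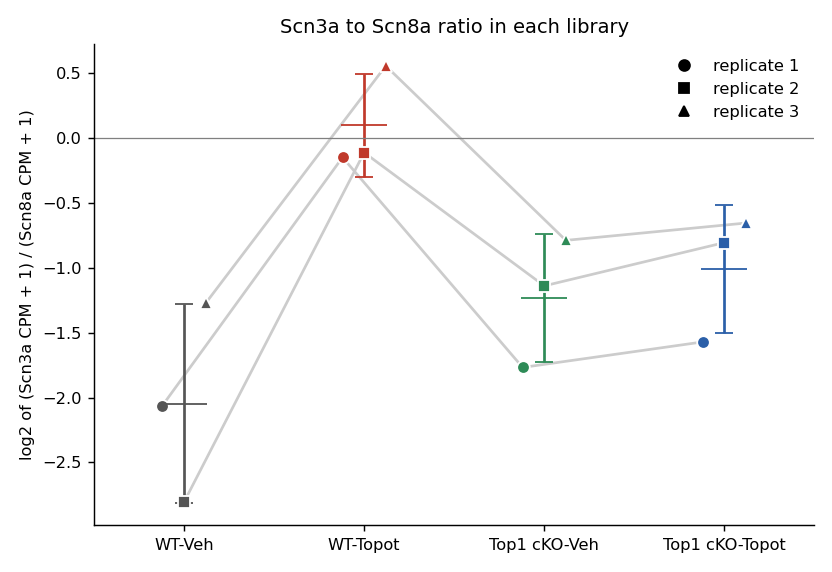
Log2 ratio of Scn3a to Scn8a, each as CPM + 1 (y axis), in the 4 groups (x axis). Symbols are libraries, grey lines join libraries with the same replicate number, and the bars show the mean and SD of 3 libraries. WT-Topot libraries sit between −0.15 and 0.55, above all libraries of the other groups, which reach −0.66 at most.

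The members differ in span from 12.195 to 699.221 kb, so each was set beside those of the 13720 genes that are of like length. In WT-Topot against WT-Veh cells, the 1556 genes of 100 to 300 kb had a median log2 fold change of −0.28, and 71.1% of them were negative. By its annotated span Fgf12 belongs here, with 10 of the 1556 genes (0.643%) lower than it. By the spread of its start sites it belongs to the class of 300 to 1000 kb (423 genes, median −1.38), where 20.1% of genes were lower. Scn8a (10.3% of genes lower) and Scn1a (19.1%) lay in the lower part and Scn2a1 (51.2%) in the middle. Scn3a had 31 genes above it and 97.9% below. Fgf14 stood in the middle of the class of 300 to 1000 kb, where 40% of genes were lower. The short beta subunit genes were compared with 4166 genes of 10 to 30 kb, with a median of 0.10: Scn4b was lower than all but 2.71% of them, and Scn2b and Scn3b were higher than 79.9% and 87.3%.

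After deletion alone, genes of 100 to 300 kb had a median log2 fold change of 0.00 and those of 300 to 1000 kb of −0.30. Of the genes of 100 to 300 kb, 5.46% were lower than Fgf12 and 92.5% lower than Scn3a, and of those of 300 to 1000 kb, 18% were lower than Fgf12. With topotecan after deletion, the medians were −0.06 and −0.43. Fgf12 had 5.72% of genes below it in the shorter class and 25.3% in the longer one, Fgf14 had 13.7% below it, and Scn1a was higher than 98.3% of the genes of 100 to 300 kb.

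**Figure D5:**
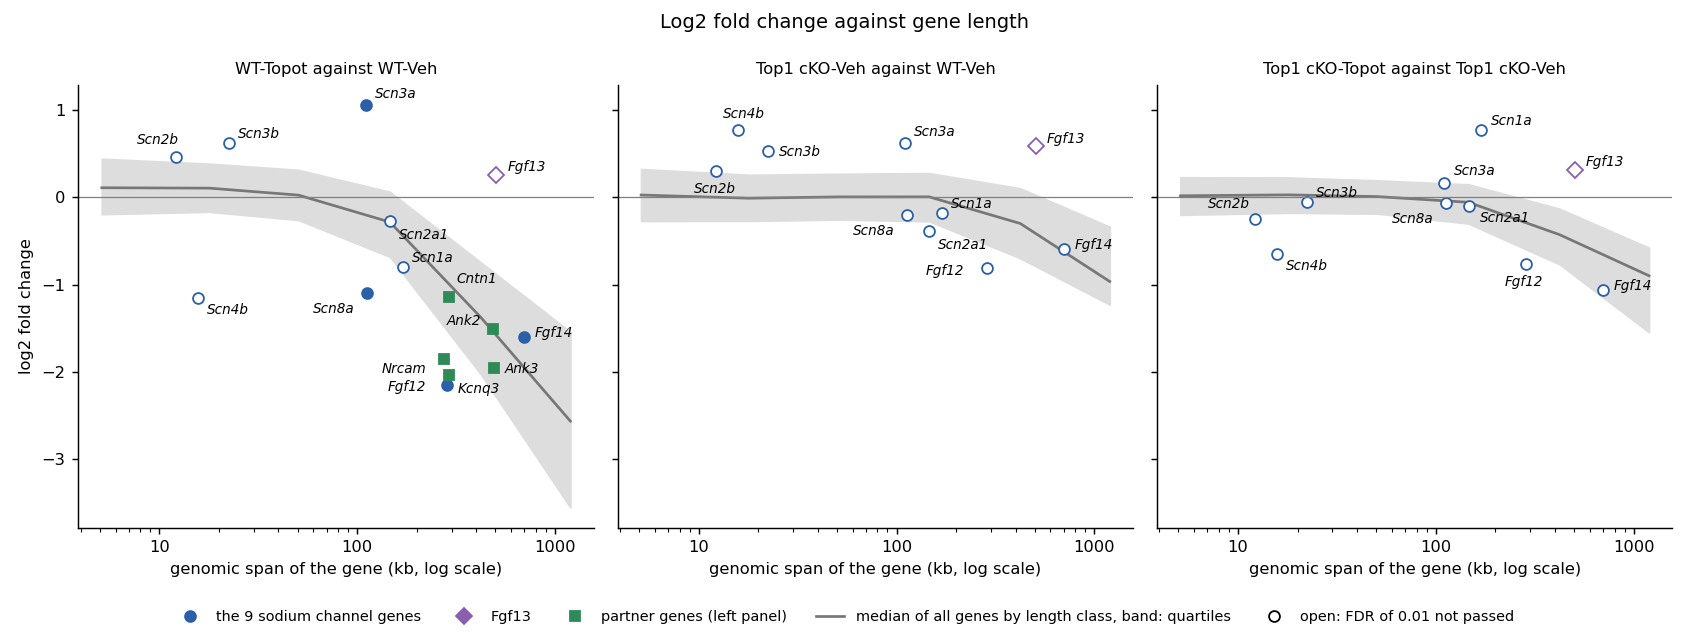
Log2 fold change (y axis, edgeR without the block) against genomic span in kb (x axis, log scale) for the 9 genes (circles), Fgf13 (diamonds) and 5 partner genes (squares, left panel) in 3 comparisons. The line and band show the median and quartiles of all genes in 6 length classes, open symbols did not pass the FDR of 0.01. Under topotecan, Scn3a at 1.06 lies above the band. Fgf12 at −2.15 lies below it at the annotated span drawn, but its start sites give a longer span, and 20.1% of the genes of 300 to 1000 kb were lower.

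A list of 9 further genes of the family included Scn4a, Scn7a, Scn9a, Fgf11 and Fgf13. Of the 9, 6 had a mean of at least 1 CPM, and none passed the FDR of 0.01 in WT-Topot against WT-Veh, with or without the block. None had an unadjusted p under 0.05 without the block. Fgf13, the FHF gene on the X chromosome, spans 505.927 kb but had 173, 146 and 213 CPM in WT-Veh and 209, 185 and 236 CPM in WT-Topot. Its log2 fold change was 0.25 ± 0.19 (SE; edgeR adjusted p = 0.751), higher than that of 96.2% of the genes of its length class. In Top1 cKO-Topot it reached 314, 288 and 380 CPM and was higher than in WT-Veh by 0.91 ± 0.19 (SE; edgeR adjusted p = 0.00728), whereas Fgf12 and Fgf14 were lower in the same comparison. Scn9a, which encodes Nav1.7, had 7.31, 9.20 and 15.6 CPM in WT-Veh and 27.5, 15.9 and 28.0 CPM in Top1 cKO-Topot. It was higher than in Top1 cKO-Veh with the block only (log2 fold change 1.71, edgeR adjusted p = 1.61e-08, and 0.149 without the block). Nalcn, the sodium leak channel, had log2 fold changes of −0.88 in WT-Topot against WT-Veh and −0.73 in Top1 cKO-Topot against Top1 cKO-Veh, both past the threshold with the block only.

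Of 16 genes for proteins that anchor, place or turn over sodium channels, 5 were lower and none higher in WT-Topot cells, where 15.1% of genes longer than 100 kb were called lower. Their median log2 fold change was −0.34. Ank3, which encodes the ankyrin G scaffold that gathers sodium channels at the axon initial segment, had 174, 258 and 161 CPM in WT-Veh and 44.2, 64.7 and 43.7 CPM in WT-Topot (log2 fold change −1.95 ± 0.23 SE; edgeR adjusted p = 1.19e-05). Nrcam, a cell adhesion molecule of the initial segment and node, fell by 1.85 and Kcnq3, a potassium channel subunit held by the same scaffold, by 2.03. Ank2 (ankyrin B) fell by 1.5 and Cntn1, an adhesion molecule that binds beta subunits, by 1.15. These 5 genes span 273.08 to 493.215 kb. The other 11, among them Sptbn4, Nfasc and Trim46, passed in neither direction, with log2 fold changes of −0.41 to 0.32.

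After deletion alone none of the 16 partner genes passed without the block, while 4 were lower and 2 higher at an unadjusted p under 0.05 (against 4.82% and 3.9% of all genes), and the DESeq2 Wald test called Nrcam lower (adjusted p = 0.00807). With the block 4 were lower and 2 higher, against 2.95% and 2.6% of all genes. Ank3, Ank2, Nrcam and Cntn1 were lower, with log2 fold changes of −0.77, −0.73, −0.75 and −0.40, and Nedd4, which encodes a ubiquitin ligase, was among the higher (0.41). The interaction was past the threshold without the block for Ank3 (1.81 ± 0.31 SE; edgeR adjusted p = 0.00388) and Nrcam (1.36 ± 0.25 SE; 0.00653), so their fall under topotecan was smaller in Top1 cKO cells. Both calls were lost without WT-Topot replicate 1 (edgeR adjusted p = 0.012 and 0.0218) or 3 (0.0127 and 0.021), that of Nrcam also without any of 5 other libraries. For Ank3, 100 to 114 CPM remained in Top1 cKO-Topot, more than in any WT-Topot library.

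For each member, the 2 genes whose log2(CPM + 1) followed it most closely over the 12 libraries were found among the 13720 genes. The libraries fall into 4 treatment groups and share replicate numbers, so these correlations only describe likeness. Fgf12 was most like Nrg3 (Pearson r = 0.986) and Nrxn3 (0.984), both longer than 1000 kb, and Kcnip4 (0.975) was 1 of the 2 for Fgf14. Scn8a was followed by Braf (0.976) and Tmem132b (0.967), Scn3a by Smarca2 (0.970) and C630043F03Rik (0.949), and Scn1a by Abcc5 (0.953) and Ppm1a (0.932). Scn2a1 was nearest to Tcf4 (0.936) and Abca5 (0.931), Scn2b to Plxnc1 (0.935) and Elavl3 (0.933), Scn3b to Jade1 (0.955) and Agbl3 (0.932), and Scn4b to Pfkp (0.902) and Ubac2 (0.884). Among the 9 genes themselves, the highest r were those of Scn3a with Scn3b (0.900) and of Fgf12 with Fgf14 (0.895), and the lowest that of Scn3a with Fgf12 (−0.688).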

How the data were processed

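PolyA RNA of 12 cultures was sequenced as 50-base paired-end reads. Per the study's methods, the authors applied TagDust to the reads, mapped the rest to the mm9 genome using TopHat, removed ribosomal reads and deposited raw counts per gene symbol over RefSeq exons. The counting program, its strand setting and the RefSeq release are not given in the sources used here. Groups came from the labels.

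The deposited counts of all 23893 genes were fitted with edgeR 4.0.16 (R 4.3.3; TMM scaling, quasi-likelihood F-test, no filter on low counts), each pair of groups on its own 6 libraries and the interaction on all 12. P-values were adjusted by Benjamini-Hochberg over all genes, with a threshold of 0.01. CPM were TMM-scaled over 12 libraries, and CPM per kb used the merged exon length in GENCODE vM1 (NCBIM37), which matched 21013 symbols directly and 1067 through synonyms. Libraries with the same replicate number deviated together (r = 0.261 to 0.485 over 18 pairs, and −0.384 to −0.0494 for different numbers, over 13720 genes). The deviations were taken from the mean of each group. Positive r for the same number thus brings negative r for different numbers, and the second range is no separate evidence. Values with the number as a block are therefore given where a call changes. What the number stands for is not stated. Replicates varied 6.05 to 10.1 times more than sampling noise, so none was a repeat of another.

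Library totals of 1730164 to 4583777 counts limit the precision for rare genes such as Scn4b. On simulated counts for WT-Topot against WT-Veh over 23893 genes, 39 of 100 genes changed by 1 on the log2 scale were recovered. Of 100 genes changed by 2, 89 were recovered. Beside these recovered genes stood 15 false calls, a larger share of all calls than the FDR threshold allows. Calls in the data may thus hold more false ones than that threshold states. Alternatives were the block, DESeq2 1.42.0 (size factors, Wald test), filterByExpr, 1 fit over all libraries, and leaving out each library. The class of 300 to 1000 kb for Fgf12 was added after seeing the data. Genes named are the 9 members and the listed channel, partner and marker genes. The members and lists were chosen with earlier results of these data known. Some genes and sequences are not reported here.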

Additional observations from a re-analysis of the deposited data

Results flagged for a closer look

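Whether the effect of topotecan differed between Top1 cKO and WT cells was tested as the difference itself (edgeR, log2 effect in Top1 cKO minus that in WT cells). Of the 9 members, the 9 other channel genes, Nalcn and the 16 partner genes, 12 passed either without or with the replicate block. Without the replicate block, the difference passed for Fgf12 (1.38), Ank3 (1.81) and Nrcam (1.36), and each of these calls was lost in some fits that left out 1 library. Of all genes, 0.398% passed upward and 0.0377% downward. In all 3 cases the fall seen in WT cells was smaller after deletion.

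With the replicate block it also passed for the alpha subunit genes Scn1a (1.57), Scn8a (1.02), Scn9a (2.15) and Scn3a (−0.87), and for the beta subunit genes Scn2b (−0.73) and Scn3b (−0.66). Scn1a was lower with topotecan in all 3 pairs of WT libraries and higher in all 3 pairs after deletion. Among the partner genes Ank2 (1.18), Cntn1 (0.59) and Kcnq3 (1.70) passed with the block as well. Scn9a rests on few reads, with 0.67 to 28 CPM over the 12 libraries. With the block, 2.44% of all genes passed upward and 1.53% downward. Cell markers passed with the block too: 2 of 6 neuronal markers upward (Rbfox3 and Snap25) and 2 downward (Tubb3 and Slc17a7). Of 7 interneuron markers, 1 passed upward (Gad1) and 1 downward, and 1 of 6 astrocyte markers passed upward (Gfap). Their part in these differences was not tested.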

How the results depend on the processing

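The replicate block changed the number of the 9 genes called to 8 (5 lower, 3 higher) in WT-Topot against WT-Veh, 4 in Top1 cKO-Veh against WT-Veh, 3 in Top1 cKO-Topot against Top1 cKO-Veh, 5 in Top1 cKO-Topot against WT-Topot, 6 in Top1 cKO-Topot against WT-Veh, 5 in WT-Topot against Top1 cKO-Veh and 6 in the interaction. The DESeq2 Wald test gave 1 for deletion alone, 1 for topotecan after deletion, 2 in Top1 cKO-Topot against WT-Topot and 2 in the interaction. With filterByExpr the number was 2 in WT-Topot against WT-Veh, 1 in WT-Topot against Top1 cKO-Veh and 0 in the interaction. Of all genes kept by that filter, these fits called 381 lower and 98 higher, 198 and 40, and 6 and 58, in that order. Leaving out 1 library gave 2 to 5, 0 to 0, 0 to 1, 1 to 2, 2 to 4, 2 to 4 and 0 to 1 in the order given for the block. The cause of these shifts was not tested.

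The sign turned when 1 library was left out only for values that had not passed. In Top1 cKO-Veh against WT-Veh these were Scn1a (−0.41 to 0.12) and Scn8a (−0.37 to 0.021). In Top1 cKO-Topot against Top1 cKO-Veh they were Scn2a1 (−0.25 to 0.052), Scn3a (−0.11 to 0.35), Scn8a (−0.23 to 0.12), Scn3b (−0.18 to 0.091), Ank3 (−0.28 to 0.040) and the log2 ratio of Scn3a to Scn8a (−0.047 to 0.50). In Top1 cKO-Topot they were also Fgf14 against WT-Topot (−0.25 to 0.37), and Scn2b (−0.18 to 0.23) and Scn4b (−0.095 to 0.32) against WT-Veh. In WT-Topot against Top1 cKO-Veh they were Scn2a1 (−0.086 to 0.27) and Scn3b (−0.0097 to 0.25). The ratio stayed between 1.76 and 2.53 in WT-Topot against WT-Veh and between 0.44 and 1.2 after deletion. The calls of Scn3a (edgeR adjusted p = 0.0161) and Scn8a (0.0124) in WT-Topot against WT-Veh, of Scn4b in WT-Topot against Top1 cKO-Veh (0.0177) and of Fgf12 in the interaction (0.0104), were lost with filterByExpr, with the direction kept. That of Scn3a was also lost in 1 fit over all 12 libraries (edgeR adjusted p = 0.0119).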

Other observations

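The rarest FHF gene, Fgf11, had 2.05, 1.31 and 2.3 CPM in WT-Veh, 4.69, 2.29 and 3 CPM with topotecan, 5.87, 6.64 and 3.51 CPM after deletion, and 2.39, 2.66 and 2.62 CPM with both. Scn11a, which encodes Nav1.9 of sensory neurons, made up 0.381 to 0.539% of the alpha subunit counts per kb in WT-Topot and 0.0727 to 0.197% in WT-Veh. Both genes rest on few reads, and neither passed the FDR of 0.01 in that comparison.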
